A study of Mus musculus with 4 samples.

Results

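The cells described here are non-cycling muscle stem cell progeny in which no Pax7 transcript was counted and Myog was low. They were chosen by measured values: a cell needed at least 1000 Malat1 CPM, under 75 CPM of Mki67 and Top2a together, under 400 CPM of Myog and 0 unique molecular identifiers (UMIs) of Pax7. CPM means UMIs of a gene per 1000000 UMIs of the cell, summed over the 4 deposited files. Of 5481 cells kept after filtering, 100 met the rule, or 1.82% (exact 95% binomial interval 1.49% to 2.21%). They are called double-low cells below.

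The cells came from mice with the MyoD-KI genotype, whose muscle stem cells had been cultured for 5 days and sorted as MyoD-tdTomato high, so every cell passed a gate on the reporter of Myod1. The sort does not admit cells with little reporter, and those were not analysed here. How many animals gave cells, and their age, is not in the labels. The 4 files carry replicate numbers, but pairs of them shared 5946 to 5965 cell barcodes (99.9% of the smaller file), and a barcode's profile in 2 files had a median r of 0.793 to 0.799, where 2 different barcodes had 0.662 to 0.666. They were therefore counted as repeat libraries of 1 sample. No test between groups of cells was possible, and intervals below cover counting error only.

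Pax7 encodes the paired-box transcription factor that marks muscle stem cells. After activation these cells express Myod1, which commits them to the muscle lineage, and divide as myoblasts; Pax7 then falls, Myog is induced, the cells leave the cell cycle, and genes of the contractile apparatus follow. Cells that have left the cycle without either Pax7 or Myog lie outside the main stages of that sequence. The rule asks only for low Mki67 and Top2a, and whether the double-low cells had left the cycle was not tested. A count of 0 for a lowly expressed factor such as Pax7 can also arise because its RNA was not captured.

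The name of the class held only in part. Myog was below its threshold but seldom absent: 86 of the 100 cells had at least 1 Myog UMI, the median was 89.4 CPM and the highest 396 CPM. The mean was 127 CPM (interval 104 to 153), against 82.5 CPM in the Pax7-detected class below and 4374 CPM in non-cycling cells with at least 2000 CPM of Myog (the Myog-high cells). Of the genes proposed as marks of these cells with results of the data known, Myod1 had 562 CPM, Spp1 784 CPM, Mgp 688 CPM and Col3a1 162 CPM. Several genes in the marker lists of other cell types had no count. Of these, Cd34 also stands in the stem and progenitor list, so its absence is not specific to fibro-adipogenic cells. Cdh5 and Kdr (endothelium), Ptprc, Lyz2 and C1qa (immune cells), Sox10 (glia), Tnmd (tendon) and Lum, Dpt and Cd34 (fibro-adipogenic cells) had 0 UMIs, and 6 of the 10 fibro-adipogenic genes were under 1 CPM. The fibro-adipogenic list summed to 212 CPM, mostly Col3a1, and the tendon list to 87.0 CPM, against 295 and 65.8 CPM in the Pax7-detected class; the endothelial and immune lists summed to 3.22 and 0.879 CPM. The list for pericytes and smooth muscle summed to 1024 CPM, mostly Acta2 at 927 CPM, against 794 CPM in the Pax7-detected class.

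Each comparison below changes 1 criterion of the rule. The 700 Pax7-detected cells met every criterion but had at least 1 Pax7 UMI. The 135 cycling cells lacked Pax7 and were Myog-low but had 75 CPM or more of Mki67 and Top2a, which encode a proliferation antigen and a topoisomerase of dividing cells. The 193 cells at Myog onset lacked Pax7, were non-cycling and had 400 to under 2000 CPM of Myog. The double-low cells were the shallowest: their median was 32153.5 summed UMIs, against 36690.5, 38443 and 46290. They had 4.21% mitochondrial UMIs at the median, against 4.0%, 3.39% and 4.15%. Ratios were therefore computed on cells thinned to 5000 UMIs in each file, which left 77, 626, 120 and 187 cells of the classes.

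How often no Pax7 UMI was counted was examined first. Of the 800 non-cycling Myog-low cells, 100 had 0 Pax7 UMIs, 100 had 1, 110 had 2, 115 had 3 and 375 had 4 or more. In the 200 of these cells with the fewest UMIs (6312 to 26972), 17.5% had none (interval 12.5% to 23.5%), and in the 200 deepest (46455 to 112587) 10% (6.22% to 15.0%). These intervals overlap. At equal depth 24.3% of non-cycling Myog-low cells had 0 Pax7 UMIs, a share close to the 22.4% in cycling Myog-low cells (20.3% to 24.6%) and far below the 93.7% in Myog-high cells.

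How far a count of 0 for Pax7 depends on the number of files read was described by choosing on 2 files. Double-low cells have 0 Pax7 UMIs in all 4 files by the rule, so Pax7 itself cannot be measured again in them. When the rule was applied to files 1 and 2 alone, 194 cells met it, of which 95 were double-low cells by all files, and 88 (45.4%, 38.2% to 52.6%) had a Pax7 UMI in files 3 and 4. With the roles of the files exchanged, 181 cells met the rule, 88 of them double-low, and 79 (43.6%, 36.3% to 51.2%) had a UMI in files 1 and 2. Over all cells so chosen Pax7 was 47.0 CPM (39.9 to 55) and 44.6 CPM (37.8 to 52.4) in the other files, all of it in cells outside the double-low class. Cycling cells chosen on 2 files with 0 Pax7 UMIs held 45.5 and 49.0 CPM there, with a UMI in 52.7% and 58.9%, so this level was not particular to the non-cycling choice. Cells at Myog onset held 9.30 and 10.8 CPM, and Myog-high cells 4.58 and 4.60 CPM with a UMI in 7.55% and 7.61%. Pax7-detected cells held 133 and 140 CPM. Median depths in the measuring files were 16720 and 18216 UMIs in the non-cycling Myog-low choice and 21252 and 22518 in the Myog-high cells. Whether files share molecules was not tested.

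**Figure D1:**
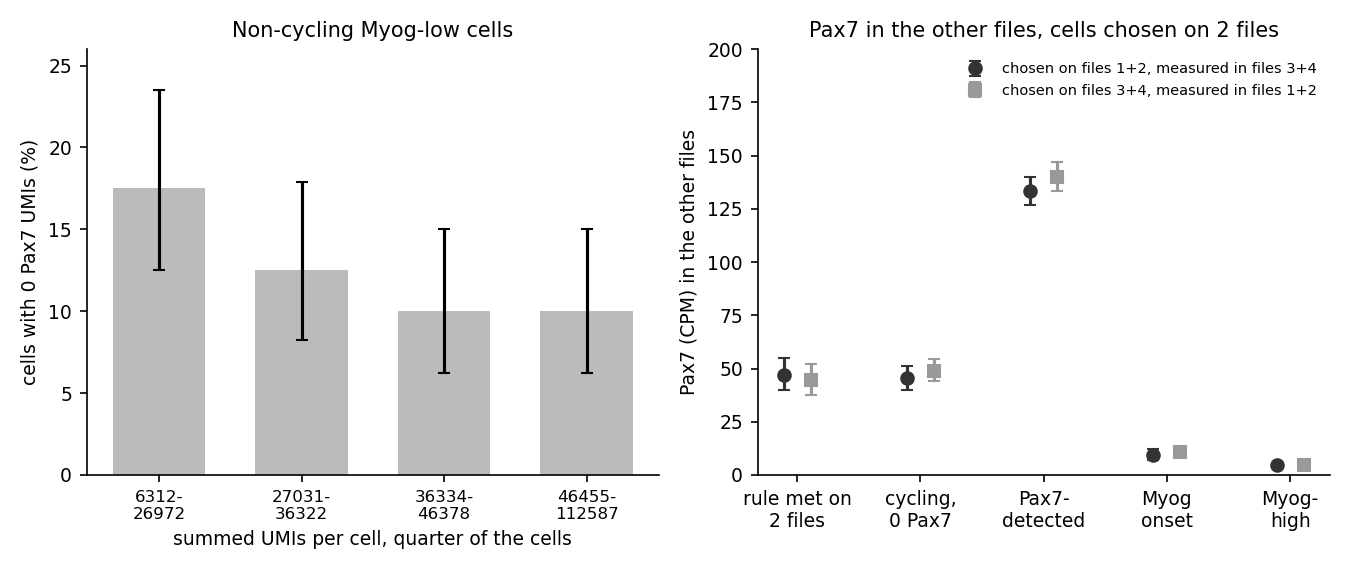
Left, the percentage of the 800 non-cycling Myog-low cells with 0 Pax7 UMIs in each of 4 depth groups of 200 cells (bars, exact 95% binomial intervals); it was 17.5% in the shallowest group and 10% in the deepest. Right, Pax7 in CPM in the 2 files not used for choosing (points, exact 95% Poisson intervals), where the first set is the 194 or 181 cells meeting the rule on 2 files, of which 95 and 88 are double-low cells with no Pax7 in any file; it held 47.0 and 44.6 CPM and the cycling set 45.5 and 49.0 CPM.

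The cells around each double-low cell gave a second view that the rule genes did not enter. Neighbours were found on summed counts before thinning, so at unequal depth. Among the 30 nearest of all kept cells, in 30 principal components of 2000 variable genes without Pax7, Myog, Mki67, Top2a and Malat1, 49.7% on average were Pax7-detected cells, a class that makes up 12.8% of kept cells. Other double-low cells made up 9.27% of neighbours and 1.82% of kept cells. Pax7-detected cells themselves had 71.0% Pax7-detected and 6.22% double-low neighbours. For 77 of the 100 double-low cells the most frequent neighbour class was Pax7-detected, for 10 it was Myog-high, for 5 cells poor in Malat1, for 4 cycling Pax7-detected, for 3 Myog onset with Pax7 and for 1 Myog onset without it. By this measure the 100 cells were a mixture, and for most of them Pax7-detected cells were the most frequent neighbours. That tally depends on class size, as 700 cells were Pax7-detected and only 100 double-low. Set against their shares of kept cells, both classes were more frequent among the neighbours, double-low cells relatively more so.

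Myod1 (ENSMUSG00000009471; positions here are from GENCODE M21 on the GRCm38 build, for this gene chromosome 7, 46376474 to 46379099) encodes the transcription factor whose reporter was sorted. Its level in double-low cells was 576, 565, 562 and 547 CPM in the 4 files, with a mean of 562 CPM (514 to 615). The files agree within that interval. Per cell it ran from 0 to 1485 CPM with a median of 566 CPM and quartiles at 196 and 848 CPM, and 94 of the 100 cells had a UMI. At least 500 CPM were reached by 56% of double-low cells (45.7% to 65.9%), against 28.7% of Pax7-detected (25.4% to 32.2%), 31.9% of cycling (24.1% to 40.4%) and 65.3% of onset cells (58.1% to 72.0%). By this share the double-low cells lay above the Pax7-detected and cycling cells and nearer to the onset cells. It was taken before thinning, at unequal depth, as were the other shares of cells at or above a CPM level. The intervals treat cells of 1 sample as independent draws, so they do not test a difference between classes. The cells with 1 Pax7 UMI, just outside the rule, had 428 CPM.

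Spp1 (ENSMUSG00000029304; chromosome 5, 104435118 to 104441050) encodes osteopontin, a secreted phosphoprotein, and Mgp (ENSMUSG00000030218; chromosome 6, 136872435 to 136875823) encodes matrix Gla protein, a secreted inhibitor of calcification. Spp1 was 761, 809, 785 and 782 CPM and Mgp 667, 656, 697 and 733 CPM in the 4 files. These means rest on few cells. The median cell had 165 CPM of Spp1 and 223 CPM of Mgp, the highest had 28020 CPM of Spp1 and 17332 CPM of Mgp, and the top 5 cells held 55.2% of all Spp1 UMIs and 54.5% of Mgp UMIs. Pax7-detected cells were higher at the median for Mgp (570 CPM) and Spp1 (242 CPM), and cells at Myog onset lower (45.1 and 22.9 CPM). Col3a1 (ENSMUSG00000026043; chromosome 1, 45311538 to 45349706), which encodes the chain of type III collagen, was more even: the median cell had 134 CPM and the top 5 cells held 14.8% of UMIs. Its level was 161, 167, 149 and 172 CPM in the files, against 223 CPM in Pax7-detected, 132 CPM in cycling and 72.3 CPM in onset cells. Of the genes given as markers, only Myod1 was thus higher than in the Pax7-detected class, and Spp1, Mgp and Col3a1 were shared with it at lower levels.

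**Figure D2:**
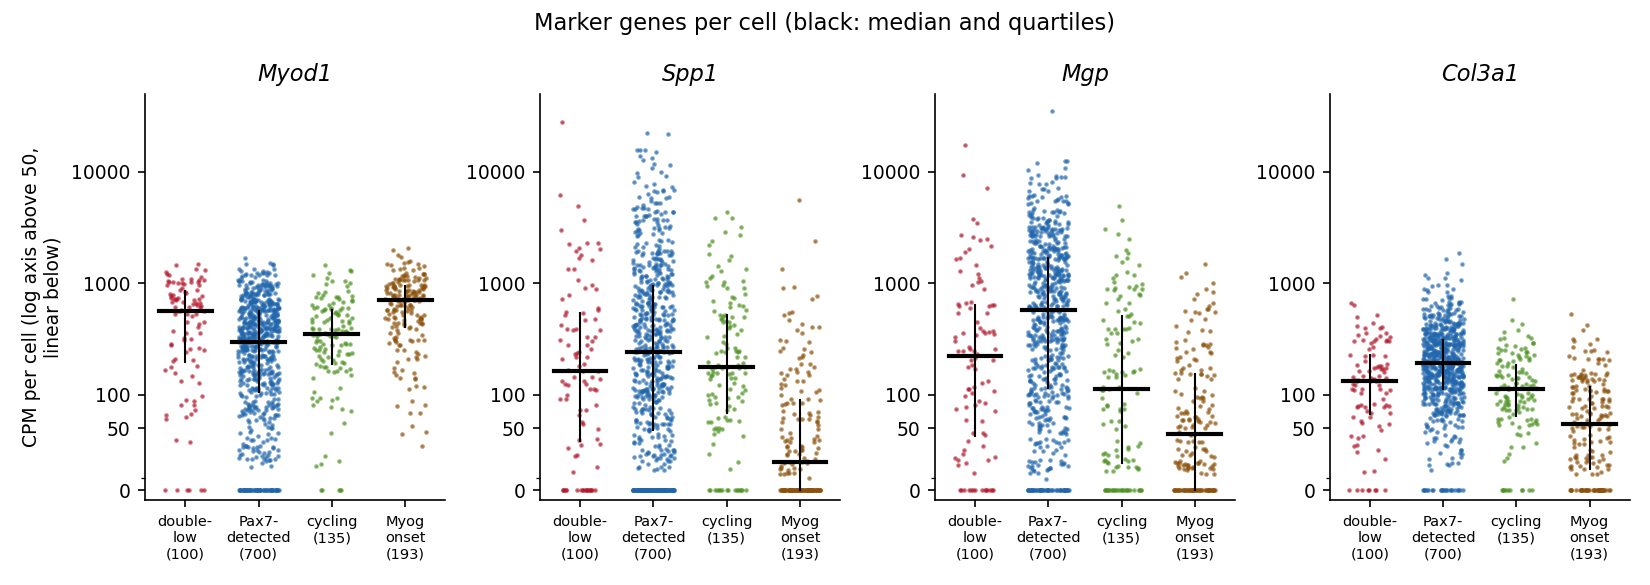
CPM of Myod1, Spp1, Mgp and Col3a1 per cell (1 point a cell; the axis is logarithmic above 50 CPM and linear below) in the 100 double-low, 700 Pax7-detected, 135 cycling and 193 Myog onset cells, with median and quartiles in black. Myod1 medians were 566, 300, 350 and 707 CPM; a few double-low cells reach above 5000 CPM of Spp1 or Mgp.

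Cells just inside and just outside each threshold were few. The 10 cells with 300 to 400 CPM of Myog had 548 CPM of Myod1 and 80.7 CPM of Spp1, and the 15 otherwise alike cells with 400 to 500 CPM had 812 and 150 CPM. The 9 cells with 50 to 75 CPM of Mki67 and Top2a had 694 CPM of Myod1, and the 9 with 75 to 100 CPM had 504 CPM. The 7 cells with 1000 to 1500 CPM of Malat1 held 5051 CPM of Spp1 through 1 cell with 28020 CPM, the other 6 having 54.6 to 2084 CPM, and the 5 cells with 500 to 1000 CPM held 259 CPM.

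The first comparison asks what double-low cells hold beside the Pax7-detected cells they otherwise match. Contractile genes were higher, for the most part through 3 cells, and 6 of 16 extracellular matrix genes and 2 of 7 Notch genes were lower past the fold. Of 6745 genes with at least 50 UMIs per file over both classes, 24 (0.356%) had a log2 ratio of at least 1 and 209 (3.1%) of at most -1, on the scale of CPM plus 1. The median of all genes was -0.12. With 77 double-low and 626 Pax7-detected cells, a gene could pass this minimum through the Pax7-detected cells alone. A gene found only in double-low cells needed a higher CPM to pass. The counts up and down are therefore not comparable, and the same limit holds for the lists and the lowest ratios below. Of the 21 genes of the differentiation list 18 passed that minimum, and 12 were past the fold upwards and 0 downwards, with a median of 1.83. They were Acta1, Actc1, Myh1, Myh3, Myl1, Myl4, Mylpf, Tnnc1, Tnnc2, Tnni1, Tnnt2 and Tnnt3, which encode actins, myosin chains and troponin subunits.

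Acta1 (ENSMUSG00000031972; chromosome 8, 123891769 to 123894751), skeletal muscle actin, was 708, 798, 790 and 751 CPM in the files before thinning and 101 CPM on average in Pax7-detected cells. After thinning it was 601 against 96.0 CPM, a log2 ratio of 2.63 (2.38 to 2.88). The medians of the classes were alike at 59.0 and 62.8 CPM, and 39.3% against 31% of thinned cells had a UMI. No class in this sort is known to lack muscle RNA, so the level that free RNA alone would give was not measured. The difference lay in the upper tail: 3 double-low cells had 18524, 12479 and 4992 CPM, no Pax7-detected cell reached 4000 CPM (0 of 700, which allows a share of up to 0.429%), and the top 5 cells held 85.9% of the Acta1 UMIs. The first of the 3 cells also had 9106 CPM of Myh3, embryonic myosin, and 11720 CPM of Ttn, and the second 4520 CPM of Cdkn1a, the highest of any double-low cell; their Spp1 was 14.9, 0 and 92.5 CPM. Their Myog was 342, 221 and 185 CPM. Their depth of 67319, 40708 and 64899 UMIs was above the class median. A doublet caller marked 0 of 5481 cells and so gave no usable call. Without the 5% of cells with the highest doublet scores 12 of 18 differentiation genes were past the fold. Whether the 3 cells were doublets was not tested.

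Without these 3 cells, an alternative added after the data were seen, 3 of the 17 differentiation genes that then passed the minimum were past the fold: Tnnc1 at 1.11, Myl1 at 1.10 and Mylpf at 1.07, with a median over the list of 0.49. Acta1 was then at 0.70, Myh3 at 0.38, Myh1 at 0.29, Tnni1 at 0.05 and Myl4 at -0.00. Other genes of the list rested less on these cells. Tnnt1, slow skeletal troponin T, was 868 against 485 CPM (log2 0.84, 0.66 to 1.01; 0.75 without the 3 cells), and 30% of double-low against 16.3% of Pax7-detected cells had at least 1000 CPM. Mylpf (ENSMUSG00000030672; chromosome 7, 127208890 to 127214298), the fast regulatory light chain, had a UMI in 67.9% against 51.9% of thinned cells. Ttn was 1192 against 736 CPM (0.69, 0.55 to 0.84) and at 0.39 without the 3 cells, while Neb, nebulin, was equal at 772 and 773 CPM. Mymk, the fusion protein myomaker, was 152 against 78.0 CPM (0.95, 0.52 to 1.37), and 0.49 without the 3 cells.

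**Figure D3:**
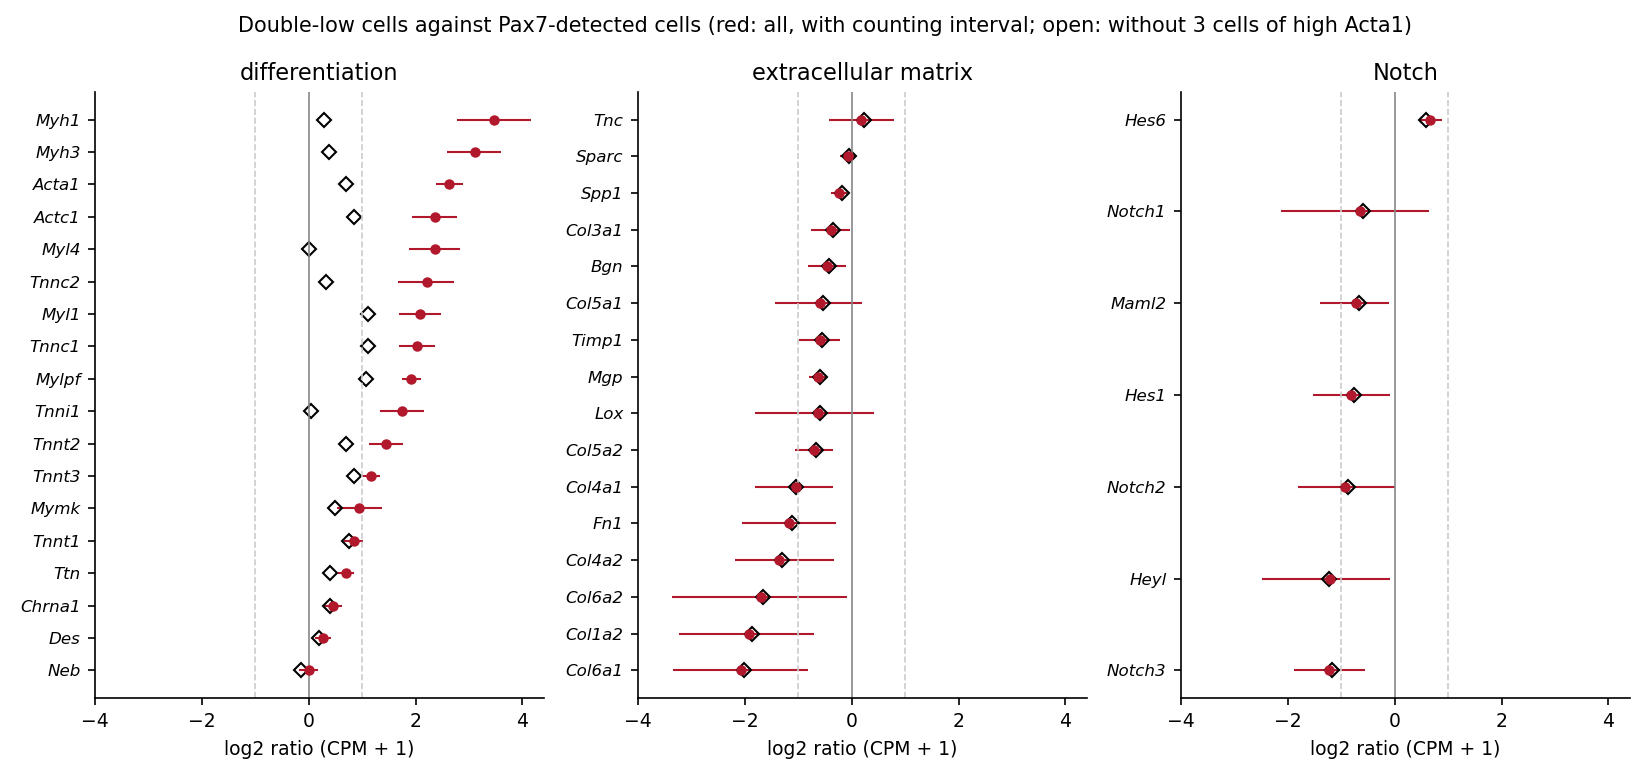
Log2 ratio of double-low to Pax7-detected cells (CPM plus 1, thinned cells) for the genes of the differentiation, extracellular matrix and Notch lists that passed the minimum. Red points carry exact 95% intervals of counting error; open diamonds leave out the 3 double-low cells with at least 4000 CPM of Acta1, which moves Myh1 from 3.47 to 0.29 and leaves Col6a1 near -2.

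Most regulators of commitment differed by less than the fold. Myod1 was 522 against 376 CPM (0.47, 0.25 to 0.69) and Myf5, its close relative, 111 in both classes (0.00, -0.48 to 0.46). Hes6, a Hes-family protein known to favour myogenic differentiation, was 580 against 364 CPM (0.66, 0.46 to 0.88), and Chrna1, the muscle acetylcholine receptor alpha subunit, 871 against 632 CPM (0.46, 0.29 to 0.63). Mef2c, a myogenic cofactor, was past the fold at 1.71 (1.08 to 2.29), but at 0.52 without the 3 cells. Eya1, a transcriptional coactivator, was lower at 6.49 against 22.3 CPM (-2.09, -3.52 to -0.04). Of the stem and progenitor list, 9 of 14 genes besides Pax7 passed the minimum and 0 were past the fold: Fgfr4 had -0.12, Cdh15 (M-cadherin) -0.04, Met -0.46, Itga7 -0.60 and Sdc4 -0.25. The other 5 had too few UMIs to be compared.

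Over all 6745 genes tested against Pax7-detected cells the median was -0.12, so most lay below 0, and 3.1% were past the fold downwards. Of 20 extracellular matrix genes 16 passed the minimum, 15 were below 0, 6 were past the fold downwards and 0 upwards, with a median of -0.64. Past the fold were Col6a1 (14.3 against 58.6 CPM, -2.07, -3.34 to -0.82), Col1a2 (14.3 against 54.4 CPM, -1.93), Col6a2 (-1.70), Col4a2 (-1.36), Fn1, fibronectin (31.2 against 68.7 CPM, -1.17, -2.05 to -0.30), and Col4a1 (-1.04). Mgp was -0.63 (-0.80 to -0.47), Col3a1 -0.39 (-0.77 to -0.03) and Spp1 -0.24 (-0.40 to -0.08). Tnc, tenascin C, was the gene above 0 at 0.17 (-0.43 to 0.79). With Pax7 decided on thinned counts, so that 171 cells fall into the class, 3 of 16 were past the fold.

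Notch signalling keeps muscle stem cells undifferentiated, and 2 of its 7 genes with enough UMIs, Notch3 and Heyl, were lower past the fold. Notch3 (ENSMUSG00000038146; chromosome 17, 32120820 to 32166852), a receptor, was 53.9 against 124 CPM (-1.22, -1.88 to -0.56), with a UMI in 20.8% against 39.4% of thinned cells. Heyl, a target gene of the pathway, was 16.2 against 38.2 CPM (-1.22, -2.49 to -0.09). Not past the fold were Hes1, another target, at -0.82 (-1.54 to -0.08), the receptors Notch2 -0.94 and Notch1 -0.65, and the coactivator Maml2 -0.73. The exception was Hes6, above. The list holds 11 genes, and 0 were past the fold upwards.

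A list of genes that marked a progenitor cluster in an earlier analysis of these data, and is thus no independent evidence, had 8 of 8 genes below 0 and 4 past the fold downwards: Rnf180 (-1.61), Tgfbr3 (-1.45), Ror1 (137 against 310 CPM, -1.19, -1.60 to -0.77) and Sulf1 (-1.11). Among cell cycle genes, 0 of 11 machinery genes were past the fold, Cdkn1a, an inhibitor of cyclin-dependent kinases, was 595 against 410 CPM (0.54, 0.33 to 0.74), and Ccnd2, cyclin D2, was 24.7 against 56.6 CPM (-1.18, -2.22 to -0.26). Tgf-beta and Yap targets had 9 of 10 genes below 0, of which 1, Tgfbr3, was past the fold downwards. The gene above 0 was Ankrd1, which encodes a muscle ankyrin repeat protein, at 711 against 442 CPM (0.68, 0.49 to 0.87). For this list and the progenitor list, the counts below 0 stand beside a median of -0.12 over all genes, most of which lay below 0.

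The 10 lowest ratios among all genes tested were those of Col5a3, Egfr, Gucy1a1, Mboat1, Ptpn13, Tmeff2, Rgs5, Cdh18, Rnf150 and Eya1. Tmeff2, a transmembrane protein with follistatin-like domains, was the best counted of them, at 28.6 against 144 CPM (-2.31, -3.25 to -1.46) and with a UMI in 10.4% against 35.6% of thinned cells. Egfr, the receptor of epidermal growth factor, was 4.55 against 31.5 CPM (-2.65, -4.52 to -0.76). Rgs5, a regulator of G-protein signalling that also marks pericytes, was 5.84 against 30.4 CPM (-2.27, -4.11 to -0.55). The others rested on at most 11 CPM in double-low cells. The 10 highest ratios were all contractile genes already named. Counts of genes past the fold depend on low counts: 50 instead of 209 genes were lower with 10 CPM added in place of 1, 53 with Pax7 decided on thinned counts and 383 without the highest cell of each gene, and 8 instead of 24 genes were higher without the 3 cells of high Acta1.

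The second comparison sets double-low cells beside cells that also lack Pax7 and Myog but divide. Cell cycle genes were lower, which the rule fixes in part, and Cdkn1a, Ogn, Pgam2 and Trdn were among the genes that were higher. Of 2596 genes 42 (1.62%) were higher past the fold and 130 (5.01%) lower, with a median of -0.01. Machinery genes were lower past the fold in 12 of 13, with Rrm2 at -0.94 the exception, and the 10 lowest ratios were those of replication-dependent histones (Hist1h1b, Hist1h2ap, Hist1h2ae, Hist2h2ac), of Clspn, Fam111a, Rad51ap1, Hmgb2, and of the spindle genes Prc1 and Tpx2. Hist1h1b was 9.74 against 639 CPM.

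Cdkn1a was 595 against 241 CPM (1.30, 0.99 to 1.61). Ogn (ENSMUSG00000021390; chromosome 13, 49608046 to 49624501), osteoglycin, a small proteoglycan, was 366 against 98.3 CPM (1.89, 1.44 to 2.35), with a UMI in 55.5% against 25.8% of thinned cells and 6.03% of its UMIs from the highest cell. Pgam2, muscle phosphoglycerate mutase, was 205 against 54.6 CPM (1.90, 1.29 to 2.51) and Trdn, triadin of the sarcoplasmic reticulum, 168 against 37.9 CPM (2.14, 1.42 to 2.86). Without the cells of high Acta1 Ogn was at 1.87, Pgam2 at 1.68 and Trdn at 1.81. The differentiation list had 11 of 17 genes past the fold upwards, but 3 of 13 without those cells: Myl1 at 1.73, Tnnt2 at 1.05 and Tnnc1 at 1.01. Tnnc2 then stood at -0.01, from 1.87.

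Mgp was 832 against 348 CPM (1.26, 1.00 to 1.51) and Ankrd1 711 against 341 CPM (1.06, 0.79 to 1.33), but without the highest cell of each class they were at 0.95 and 0.97, short of the fold. Myod1 was 522 against 397 CPM (0.39, 0.12 to 0.67), Spp1 0.91 (0.69 to 1.13; 0.33 without the highest cell of each class) and Col3a1 0.44 (-0.05 to 0.92). Of 14 stem and progenitor genes 5 passed the minimum, all above 0 and 0 past the fold. The nuclear transcript Neat1 was 255 against 120 CPM (1.08, 0.63 to 1.53), beside Malat1, which the rule used, at 8882 against 4691 CPM.

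The third comparison, with non-cycling cells that had begun to express Myog, had a larger share of genes past the fold than the other two. The genes tested and the numbers of cells differed between comparisons, so these shares are not directly comparable. Contractile genes were lower. Ccnd1, Myf5 and 4 of 7 matrix genes were higher past the fold, 3 of the matrix genes being markers given for these cells. Of 3350 genes 67 (2.0%) were higher past the fold and 246 (7.34%) lower, with a median of -0.02. In the differentiation list 21 of 21 genes were below 0 and 19 past the fold, with a median of -2.54; Des (-0.50) and Chrna1 (-0.52) were not. Acta1 was 601 against 4037 CPM (-2.75, -2.94 to -2.55), Mylpf 994 against 5781 CPM (-2.54), Ttn 1192 against 4953 CPM (-2.06), Mymk 152 against 685 CPM (-2.17) and Mymx, the other fusion protein, 14.3 against 130 CPM (-3.12). Without the 3 cells of high Acta1 the median was -3.64. Mef2c was 86.4 against 566 CPM (-2.70, -3.24 to -2.20) and Mef2a 334 against 887 CPM (-1.41).

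Genes of the cell cycle exit list went both ways. Cdkn1a was 595 against 1423 CPM (-1.26, -1.46 to -1.05), Rb1, the retinoblastoma protein, 61.7 against 166 CPM (-1.42, -2.09 to -0.79) and Cdkn1c, a second kinase inhibitor, 8.44 against 68.4 CPM (-3.04). Ccnd1 (ENSMUSG00000070348; chromosome 7, 144929931 to 144939925), cyclin D1, which drives entry into the cell cycle, was 253 against 42.0 CPM (2.56, 2.02 to 3.12), and at least 500 CPM were found in 15% of double-low cells and in 0 of 193 onset cells, which allows a share of up to 1.55%. Id3, an inhibitor of MyoD-type factors, was 1214 against 606 CPM (1.00, 0.82 to 1.18; just under 1 without the highest cells), and Myf5 was 111 against 38.8 CPM (1.53, 0.83 to 2.16).

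The 10 highest ratios were those of Spp1, Tagln2, Mgp, Ccnd1, Csf1, Gclc, Serpine2, Ifitm3, Hmga2 and Asap1. Spp1 was 973 against 126 CPM (2.94, 2.64 to 3.25) and Mgp 832 against 129 CPM (2.68, 2.37 to 2.99). Tagln2, an actin-binding transgelin, was 131 against 19.8 CPM (2.73, 1.90 to 3.48), and Csf1 (ENSMUSG00000014599; chromosome 3, 107741048 to 107760469), the macrophage growth factor, 181 against 45.5 CPM (1.97, 1.41 to 2.55). Hmga2, a chromatin protein of proliferating progenitors, was 274 against 79.9 CPM (1.77, 1.33 to 2.21), and Ifitm3, an interferon-induced membrane protein, 258 against 75.7 CPM (1.77, 1.31 to 2.21). Of 7 matrix genes with enough UMIs 7 were above 0 and 4 past the fold: Spp1, Mgp, Col3a1 (176 against 77.5 CPM, 1.18, 0.68 to 1.67) and Timp1, which was at 1.04 and, without the highest cell of each class, at 0.73. Spp1, Mgp and Col3a1 were proposed as marks of these cells with results of the data known, so they are no independent evidence about matrix genes. The 10 lowest were Csrp3, Smim5, Nmrk2, Unc45b, Filip1, Ablim3, Tceal3, Lmo7, Itgb1bp2 and Arpp21; Csrp3, a muscle LIM protein, was 6.49 against 123 CPM (-4.23), and Unc45b, a myosin chaperone, 4.55 against 68.7 CPM (-3.74).

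**Figure D4:**
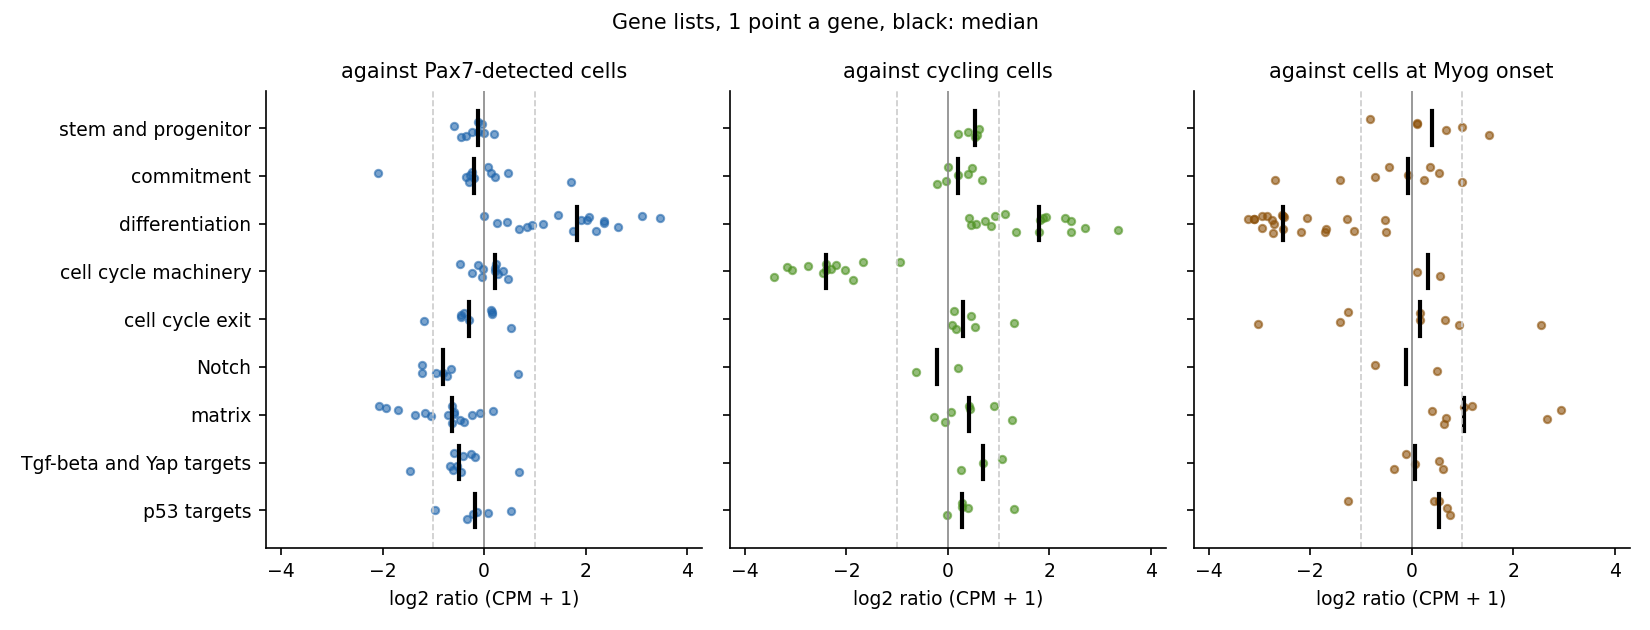
Log2 ratios (CPM plus 1, thinned cells) of the genes of 9 lists in double-low cells against Pax7-detected, cycling and Myog onset cells, 1 point a gene with the list median in black and dashed lines at -1 and 1. The differentiation medians were 1.83, 1.80 and -2.54, and the matrix medians -0.64, 0.41 and 1.04. Without the highest cell of each gene in each class they were 1.23, 1.09 and -2.95, and -0.94, 0.33 and 0.73. The points shown include all cells, also those of high Acta1.

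The 3 comparisons share the double-low cells, so they are not independent of each other. Read side by side, Acta1 was 96.0 CPM in Pax7-detected, 122 CPM in cycling, 601 CPM in double-low and 4037 CPM in onset cells; Mgp was 1290, 348, 832 and 129 CPM in the same order; Cdkn1a was 410, 241, 595 and 1423 CPM; and Myod1 was 376, 397, 522 and 710 CPM. For each of these genes the double-low sum lay between that of the Pax7-detected and that of the onset cells, but for Acta1 through 3 cells: the median double-low cell had 59.0 CPM and the median Pax7-detected cell 62.8 CPM.

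How the double-low cells vary among themselves was examined by splitting them on Spp1, comparing the 33 cells with the most and the 33 with the fewest CPM (27 and 24 after thinning). Median depths were 32739 and 27785 UMIs. Of 618 genes with enough UMIs 11 (1.78%) were higher past the fold in the Spp1-rich cells and 33 (5.34%) lower. Contractile genes were the main group among the lower ones, with 11 of 13 past the fold and a median of -2.30. Ttn (ENSMUSG00000051747; chromosome 2, 76703980 to 76982547), the giant sarcomere protein titin, was 517 against 2421 CPM (-2.23, -2.62 to -1.85) and had a UMI in 56.5% against 91.7% of thinned cells. Tnnt1 was 426 against 1631 CPM (-1.94, -2.38 to -1.5), Tnnt3 383 against 1606 CPM (-2.10), and Acta2, smooth muscle actin, which is also expressed in early myocytes, 409 against 1771 CPM (-2.12, -2.56 to -1.68).

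The 3 cells of high Acta1 all had little Spp1. Without them 20 genes instead of 33 were lower, and 5 of 7 differentiation genes were past the fold, with Ttn at -1.82 and Tnnt1 at -1.91, while Acta1 went from -3.70 to -0.92 and Myl1 from -2.30 to -0.66. Higher in Spp1-rich cells were Mgp (1617 against 319 CPM, 2.34, 1.84 to 2.87), Hmga2 (433 against 121 CPM, 1.84, 0.99 to 2.77), S100a4, a calcium-binding protein of motile cells (4344 against 1369 CPM, 1.67, 1.41 to 1.92), Ifitm3, Rrm2, Anxa1, Mt2, Ankrd1, Cd9 and Lgals3, of which Ankrd1 was at 0.88 without the highest cells. Rrm2, a subunit of ribonucleotide reductase, was 439 against 167 CPM (1.38, 0.64 to 2.20). Hmga2 had a UMI in 75% against 27.1% of thinned cells. Mgp had one in 48.1% against 52.1%, and 38.4% of its UMIs in Spp1-rich cells came from the highest cell.

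Ranked across the 77 thinned double-low cells, the following relations were seen, given here as a description without a test. Cells share libraries and a fixed number of UMIs, and 120 pairs, 15 of them with depth, were computed. Spearman's rho was 0.55 between Tnnt1 and Ttn, -0.58 between Tnnt1 and Ccnd1, -0.53 between Ttn and Ccnd1, 0.46 between Spp1 and Ccnd1, and -0.46 and -0.45 between Spp1 and Tnnt1 and Ttn. Myod1 had -0.10 with Spp1 and 0.18 with Ttn. Mgp and Col3a1 had 0.43. With the depth before thinning Mgp had -0.42, Tnnt1 -0.20, Col3a1 -0.04, Spp1 0.05, Myod1 0.14, Ttn 0.17 and Ccnd1 0.29.

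**Figure D5:**
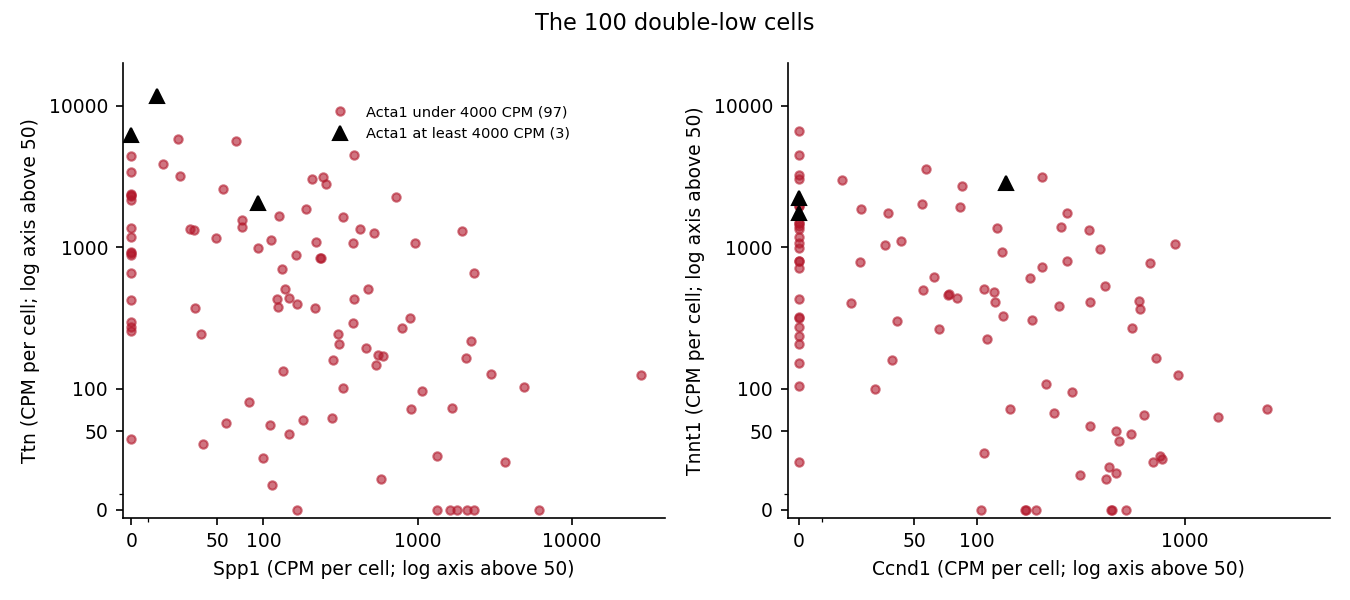
Ttn against Spp1 (left) and Tnnt1 against Ccnd1 (right) in CPM per cell for the 100 double-low cells (axes are logarithmic above 50 CPM and linear below). Triangles mark the 3 cells with at least 4000 CPM of Acta1; the cells without Ttn all lie at or above 100 CPM of Spp1, and the points run from the upper left to the lower right.

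The promoters of 2 contractile genes that were low in Spp1-rich cells, and that of Spp1, are printed to show the E-boxes, the CANNTG elements (N any base, the same on both strands) to which factors of the MyoD family bind. For Acta1 the low ratio rested mostly on the cells of high Acta1. Each run is the 250 bases before the first start in the RefSeq table (GRCm38.p6), 5′ to 3′ on the gene's strand, with E-boxes in capitals. They are chr8:123894776-123895025 on the minus strand for Acta1, chr7:127211358-127211607 on the plus strand for Mylpf and chr5:104434861-104435110 on the plus strand for Spp1.
Acta1: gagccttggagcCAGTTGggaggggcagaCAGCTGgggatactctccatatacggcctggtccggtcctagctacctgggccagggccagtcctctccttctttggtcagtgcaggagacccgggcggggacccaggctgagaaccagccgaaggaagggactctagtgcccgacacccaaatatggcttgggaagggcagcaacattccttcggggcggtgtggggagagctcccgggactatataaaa
Mylpf: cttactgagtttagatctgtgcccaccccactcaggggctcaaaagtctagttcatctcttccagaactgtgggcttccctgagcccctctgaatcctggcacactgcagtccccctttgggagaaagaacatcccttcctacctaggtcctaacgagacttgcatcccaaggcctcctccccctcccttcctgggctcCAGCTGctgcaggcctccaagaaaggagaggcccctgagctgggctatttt
Spp1: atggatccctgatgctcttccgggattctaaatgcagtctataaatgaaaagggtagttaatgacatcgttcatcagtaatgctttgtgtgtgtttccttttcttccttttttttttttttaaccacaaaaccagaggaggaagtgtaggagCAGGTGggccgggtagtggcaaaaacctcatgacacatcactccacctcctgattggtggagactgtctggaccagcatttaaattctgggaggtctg
Acta1 has 2 E-boxes and Mylpf and Spp1 have 1 each. The form CAGCTG, once in Acta1 and once in Mylpf, stood in 47.4% of 19 promoters of the differentiation list, in 10.5% of 19 promoters of the matrix list and in 13% of all 32851 promoters of the table; any CANNTG stood in 84.2%, 47.4% and 66.2%. A match describes the letters only.

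Splitting the double-low cells by Myod1 instead gave fewer differences: of 537 genes 8 (1.49%) were higher and 11 (2.05%) lower in the 33 cells with the most Myod1 (21 and 24 cells after thinning). Under trimmed-mean scaling the counts were 9 and 8. Ankrd1 was 1164 against 300 CPM (1.95, 1.41 to 2.53), Hes6 902 against 375 CPM (1.27, 0.74 to 1.81), Ccnd3, cyclin D3, 524 against 242 CPM (1.12, 0.44 to 1.81), Rbm24, a muscle splicing regulator, 490 against 202 CPM (1.28, 0.55 to 2.03) and Chrna1 1231 against 602 CPM (1.03, 0.60 to 1.47). Lower were Mt2 (-2.13) and Mt1 (-1.06), both metallothioneins, and Acta2 (-1.37). Spp1 was 619 against 1983 CPM (-1.68, -2.10 to -1.28), but -0.85 without the highest cell on each side: the cell with 28020 CPM of Spp1 had 62.7 CPM of Myod1.

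Of 13 differentiation genes 6 were lower past the fold in Myod1-rich cells, and these directions rested on the cells of high Acta1, of which 2 had at most 134 CPM of Myod1. Without them 5 genes instead of 11 were lower in all, and Acta1 turned from -2.43 to 1.16, Tnnc1 from -1.05 to 1.13 and Mylpf from -1.04 to 0.82. Ttn (-0.26, -0.60 to 0.07; 0.62 without those cells) and Tnnt1 (-0.54, -0.94 to -0.12) were not past the fold. Spp1 and Myod1 therefore ordered the double-low cells differently: contractile genes followed low Spp1 with or without those 3 cells, and followed Myod1 in a direction that depended on them.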

How the data were processed

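Cultured mouse muscle stem cells sorted as MyoD-tdTomato high were profiled with 10x 3′ v3.1 chemistry; the labels state about 10000 cells processed. The authors deposited UMI counts per gene and barcode in 4 files, written by Cell Ranger 7.1.0 per the file headers, where the submitters' processing notes give Cell Ranger 3.1.0 and the builds mm10 and GRCm39 with no role. Of 32285 gene identifiers 99.8% were found in GENCODE M21. The files held 62627341 to 68898900 UMIs and shared 5944 barcodes. As they hold the same cells they count as 1 sample. Cells needed a mean of 1000 genes and under 10% mitochondrial UMIs. Summed counts chose the classes.

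For ratios each cell was thinned to 5000 UMIs per file, leaving out 23 double-low, 74 Pax7-detected, 15 cycling and 6 onset cells. UMIs were summed per file, and the log2 ratio of CPM plus 1 was averaged over files, with an exact conditional binomial 95% interval at the mean count of 1 file. Genes needed 50 UMIs per file over both sides together, so a gene could pass through 1 side alone. Past the fold means a log2 ratio of at least 1 or at most -1. Intervals and limits (3 counts where 0 were seen) cover counting error only. Named genes are the 10 highest and 10 lowest ratios with the same sign in every file, without genes the rule used, and the genes of the lists. The members and lists were chosen with earlier results of these data known. The ratio calculation was tested on simulated data. Scrublet in scanpy 1.11.5 called 0 cells, so none was removed. Alternatives were other thresholds, thinning, pseudocount, minimum, doublet scores, and factors from edgeR 4.0.16 (TMM) and DESeq2 1.42.0, all listed at the start, and leaving out single high cells, added later. Python 3.11.15, numpy 2.4.6, scipy 1.17.1, pandas 2.3.3 and R 4.3.3 were used.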

Additional observations from a re-analysis of the deposited data

Results flagged for a closer look

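Of 158 values examined over the 4 files, 9 had 1 file standing apart from the other three by Dixon's criterion, where chance gives about 5% of values. In double-low cells Id2 was 132 CPM in file 2 and 156 CPM on average in the others. Against Pax7-detected cells the log2 ratio was 1.52 in file 4 for Tnni1 (1.82 in the others), -4.40 in file 1 for Cdh18 (-1.39) and -4.73 in file 2 for Eya1 (-1.21), both of these last from few UMIs. Ogn against cycling cells was 1.60 in file 2 (1.99 in the others). Against Myog onset, Ifitm3 was 2.03 in file 2 (1.68) and Filip1 -4.21 in file 1 (-3.58). By Spp1, S100a4 was 1.75 in file 4 (1.64), and by Myod1, Rbm24 was 1.14 in file 3 (1.33).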

How the results depend on the processing

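Of 145 recomputed counts and summary values, 114 kept within 1.5 times, 31 moved and 0 reversed; of 5183 recomputed values of single genes 5040 kept, 138 moved and 5 reversed. The number of double-low cells was 157 with no Malat1 threshold, 60 with under 5% mitochondrial UMIs and at least 2000 genes, and 171 with Pax7 at 0 after thinning, 77 of them shared; leaving out 1 file gave 131 to 139. Genes higher and lower against Pax7-detected cells were 172 and 1527 with no minimum count; 48 were higher with no thinning and 8 without the 3 cells of high Acta1; 50 were lower with a pseudocount of 10 CPM, 53 with Pax7 decided after thinning and 383 without the highest cell on each side. Against cycling cells they were 27 and 82 with thinning to 3000 UMIs, 85 and 288 with none, and 722 and 1233 with no minimum. Against Myog onset they were 904 and 1217 with no minimum, and 176 were higher with no thinning. By Spp1 they were 23 and 56 with no thinning and 1460 and 1218 with no minimum; 21 were lower with thinning to 3000 UMIs and 20 without the cells of high Acta1. By Myod1 they were 14 and 22 with no thinning and 904 and 1629 with no minimum; 6 were lower with thinning to 3000 UMIs and 5 without the cells of high Acta1. Reversed, all without those cells, were Myl4 against Pax7-detected (-0.000797), Tnnc2 against cycling (-0.0139), and Acta1 (1.16), Tnnc1 (1.13) and Mylpf (0.82) by Myod1. With no minimum more genes are tested by construction; elsewhere the cause was not tested. Pax7 of cells chosen on 2 files was 45.8 CPM in the other files and 47.4 CPM with other pairs of files. No paired analysis was possible because all 4 files belong to 1 group and hold the same cells. The depth of the double-low cells leaves 77 of 100 for ratios, and genes under the minimum could not be compared.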
